A study of Homo sapiens with 16 samples.

Results

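The genes described here are 34 genes of cholesterol and fatty acid synthesis, named for their place in these pathways. They were found by matching gene symbols to the Ensembl identifiers of the count tables, which hold 60620 identifiers common to all libraries, and each symbol matched 1 identifier. They fall into 7 genes of the mevalonate pathway, 11 genes that turn its product into cholesterol, 9 fatty acid genes, 5 regulators and 2 genes of sterol transport. The mevalonate and sterol genes together, 18 in all, are called the sterol branch. RNA was sequenced from MDA-MB-231, an established line of human breast cancer cells without hormone receptors, and from 231:TKO, in which TXNIP had been disrupted with a CRISPR/Cas9 plasmid. TXNIP is an arrestin family protein that restrains glucose uptake, and Myc is a transcription factor that drives growth and metabolic genes. Untreated parental 231 and 231:TKO cells had 2 libraries each. Both populations were also treated for 48 hours with a non-targeting siRNA (siNT) or with an siRNA against Myc (siMyc), with 3 libraries for each of these 4 groups. The study asked how TXNIP loss changes gene expression and how much of that change depends on Myc. The knockout cells were grown out from single cells, so the effect of TXNIP loss and the difference between a clone and its parent line cannot be told apart. How many clones gave the libraries is not given in the sources used here.

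Cholesterol is built from acetyl-CoA through the mevalonate pathway, which ends in farnesyl diphosphate, and a second series of enzymes then closes the sterol rings and trims them. Fatty acid synthesis starts from the same acetyl-CoA. Both are switched on by the SREBP transcription factors, encoded by SREBF2, which favors sterol genes, and SREBF1, which favors fatty acid genes. SCAP carries these factors to the Golgi for cleavage when sterols are low, and the INSIG proteins hold SCAP back in the endoplasmic reticulum when sterols are high. SREBP binds sterol regulatory elements beside NF-Y, which binds the CCAAT box, and Myc with its partner Max binds the E-box CACGTG.

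Promoter sequences are shown for 6 members whose levels are described below. They are SREBF2 and INSIG1 among the regulators, HMGCS1 at the head of the mevalonate pathway, and SC5D, MSMO1 and TM7SF2 in the sterol series. No expression result was computed from these sequences. The bases are from RefSeq on GRCh38.p14, 5′ to 3′ on the strand of the gene, and end before the first base of the gene in RefSeq or in the count tables, whichever lies further upstream. Capitals mark matches on either strand to TCACNCCAC, a form of the sterol regulatory element, to CACGTG and to CCAAT, which reads ATTGG on the other strand. The regions are chr22:41832929-41833078 on the plus strand for SREBF2, chr7:155297628-155297775 on the plus strand for INSIG1, chr5:43313513-43313662 on the minus strand for HMGCS1, chr11:121292531-121292680 on the plus strand for SC5D, chr4:165327517-165327666 on the plus strand for MSMO1 and chr11:65111695-65111844 on the plus strand for TM7SF2.
SREBF2: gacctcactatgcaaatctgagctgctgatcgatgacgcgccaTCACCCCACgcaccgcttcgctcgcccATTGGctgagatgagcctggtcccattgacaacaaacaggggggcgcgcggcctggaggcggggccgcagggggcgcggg
INSIG1: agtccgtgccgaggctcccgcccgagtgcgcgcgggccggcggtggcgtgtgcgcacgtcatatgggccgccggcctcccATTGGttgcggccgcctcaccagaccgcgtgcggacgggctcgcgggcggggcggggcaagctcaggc
HMGCS1: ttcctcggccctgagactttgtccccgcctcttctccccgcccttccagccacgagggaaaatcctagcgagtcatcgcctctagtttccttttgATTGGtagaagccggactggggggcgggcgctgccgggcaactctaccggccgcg
SC5D: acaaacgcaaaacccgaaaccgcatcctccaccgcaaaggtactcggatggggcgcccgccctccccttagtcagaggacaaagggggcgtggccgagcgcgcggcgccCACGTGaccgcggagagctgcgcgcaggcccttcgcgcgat
MSMO1: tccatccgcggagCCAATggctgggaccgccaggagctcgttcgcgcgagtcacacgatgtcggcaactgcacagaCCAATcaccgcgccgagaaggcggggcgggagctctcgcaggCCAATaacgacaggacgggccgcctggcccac
TM7SF2: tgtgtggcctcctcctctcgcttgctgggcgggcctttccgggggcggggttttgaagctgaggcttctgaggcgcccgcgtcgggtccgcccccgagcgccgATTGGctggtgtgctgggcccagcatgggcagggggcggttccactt

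A promoter of 250 bases before and 50 bases after the RefSeq start was found for 30 of the 34 members, all except FDFT1, ACAT2, FASN and SQLE. CCAAT was present on either strand in 18 of these 30 promoters, and in 12 of the 15 of the sterol branch (80.0%) against 3 of the 8 of the fatty acid branch (37.5%). Among the promoters of all 27305 genes of the table the share was 35.7%, and among those of genes with a mean of at least 1 CPM (counts rescaled to a common library total) it was 36.6%. MSMO1, which encodes the methylsterol oxidase, held 4 CCAAT matches, 3 of them in the sequence printed, and MVK, mevalonate kinase, held 5. The E-box was present in 5 of the 30 promoters (16.7%), those of LSS, SC5D, INSIG1, SCAP and ABCA1. Its share was 7.43% of all promoters and 10.1% of those of genes with at least 1 CPM. The E-box of INSIG1, the CCAAT match of SC5D and a CCAAT match of HMGCS1 lay downstream of the bases printed. TCACNCCAC was present in 1 of the 30, that of SREBF2, and in 1.15% of all promoters. The GC box GGGCGG was present in 28 of the 30 and in 44.6% of all promoters, or 70.7% of those of genes with at least 1 CPM. A match describes these letters in this window and does not show that a factor binds there.

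Total counts lay between 18953668 and 59799444 per library, so that 3 counts corresponded to between 0.0502 and 0.158 CPM, and all 34 members lay above that floor in every library. CPM values below are scaled by the TMM method. Among markers of this line VIM, CD44 and KRT18 had group means between 203 and 2940 CPM, ESR1, PGR and KRT5 lay at 0.25 CPM or less, EPCAM and ERBB2 were detected (11.9 to 23.0 and 84.2 to 101 CPM), and CDH1 had means of 4.58 CPM in untreated parental 231 and 0.33 in untreated 231:TKO. TXNIP was at 276 and 277 CPM in untreated parental 231 and at 12.7 and 46.5 CPM in untreated 231:TKO, where the difference missed the threshold (adjusted p = 0.0587, edgeR), and at 6.93, 8.06 and 6.70 CPM in 231:TKO+siNT against 315, 299 and 296 CPM in parental 231+siNT. The siMyc libraries had TXNIP at 9.49, 9.03 and 10.1 CPM in 231:TKO and at 464, 470 and 434 CPM in parental 231. MYC was at 92.9 and 93.6 CPM in parental 231 and at 115 and 89.7 CPM in 231:TKO. It was at 124, 147 and 134 CPM in 231:TKO+siNT and at 58.8, 58.5 and 57.9 CPM in 231:TKO+siMyc, and at 123, 125 and 129 CPM in parental 231+siNT and 64.8, 64.9 and 67.3 CPM in parental 231+siMyc. Both siMyc groups lay below their siNT groups, with log2 fold changes of -1.21 ± 0.06 and -0.96 ± 0.09. In parental 231 the call of MYC changed in 4 of the fits that left out a library, with log2 fold changes from -0.99 to -0.94.

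Some libraries stood apart from their replicates. The 2 untreated 231:TKO libraries deviated from their mean with an SD of 0.245 over genes on the log2 scale, against 0.0771 in parental 231. Replicate 1 of parental 231+siNT and replicate 3 of parental 231+siMyc had SDs of 0.242 and 0.229, and their deviations went together (r = 0.897 across genes, which are not independent replicates). They were low together in ACACA, acetyl-CoA carboxylase, at 64.1 CPM against 136 and 151 in the other parental 231+siNT libraries, and at 66.6 CPM against 141 and 146 in the other parental 231+siMyc libraries. CYP51A1, ACLY, FASN, LPIN1, FADS1, SCD and ABCA1 were also low in both, and PMVK and EBP high. FASN was below the mean of the other libraries by log2 values of -0.65 and -0.36, and SCD by -0.40 and -0.33. Counts of called members that use these libraries are given with and without them. Ratios of siNT-treated to untreated libraries are given only with them. Bulk RNA cannot tell fewer cells of a kind from less RNA per cell.

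Levels between genes were compared as FPKM, CPM divided by gene length in kilobases in the earlier of the Ensembl releases used. In 231:TKO+siNT, SCD, the stearoyl-CoA desaturase, was highest at 326 ± 32 FPKM (SD, n = 3), followed by ACLY at 114 ± 4.0 and INSIG1 at 96.6 ± 2.5. The lowest were HSD17B7 at 3.89 ± 0.16, CYP51A1 at 3.83 ± 0.28, ABCA1 at 3.82 ± 0.50 and TM7SF2 at 3.62 ± 0.20, which did not differ among themselves beyond their spread. FDPS, CYP51A1 and HSD17B7 have pseudogene copies in the genome, so that their counts are uncertain to the extent that reads were shared.

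Myc knockdown in 231:TKO cells raised most of the sterol branch by small amounts. Of the 34 members, 20 were higher and 2 lower in 231:TKO+siMyc than in 231:TKO+siNT (edgeR's quasi-likelihood test, Benjamini-Hochberg adjusted p no higher than 0.05). Of all 22427 genes tested 27.2% were called, 13.3% higher and 13.9% lower. The members were all well detected, and of the 13381 genes whose mean reached 1 CPM 43.1% were called, 20.9% higher and 22.2% lower, against 64.7% of the members. In the sterol branch 13 of 18 were higher and 0 lower, and DESeq2 also called 13 higher and 0 lower. An unadjusted p under 0.05 was found for 15 of these 18, against 35.6% of all genes tested. The median log2 fold change of the sterol branch was 0.22, that of the fatty acid branch 0.045 and that of all genes tested 0.0071.

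Among the sterol genes TM7SF2, a sterol C14 reductase (ENSG00000149809, chr11:65111845-65116408), moved most. It was at 11.7, 13.0 and 12.6 CPM in 231:TKO+siNT and at 24.2, 22.3 and 21.6 CPM in 231:TKO+siMyc. The groups did not overlap, and the log2 fold change was 0.87 ± 0.08 (SE; adjusted p = 2.28e-08, edgeR). MSMO1 (ENSG00000052802, chr4:165327667-165343164) was at 186, 183 and 190 CPM with siNT and at 256, 266 and 294 CPM with siMyc, every siMyc library above every siNT library, a log2 fold change of 0.55 ± 0.05 (adjusted p = 1.02e-07, edgeR). LSS, which closes the sterol rings (ENSG00000160285, chr21:46188141-46228824), was at 465, 517 and 490 CPM and at 676, 675 and 592 CPM. Its log2 fold change was 0.40 ± 0.05. FDFT1, NSDHL, EBP, SC5D and DHCR7 were called higher with log2 fold changes between 0.20 and 0.25. SQLE at 0.06 ± 0.06, the epoxidase just upstream of LSS, CYP51A1 at 0.18 ± 0.08 and HSD17B7 at 0.15 ± 0.07 did not pass the test.

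In the mevalonate pathway HMGCS1, which makes HMG-CoA (ENSG00000112972, chr5:43287470-43313512), was at 176, 172 and 179 CPM in 231:TKO+siNT and at 220, 242 and 241 CPM in 231:TKO+siMyc. The groups did not overlap, and the log2 fold change was 0.42 ± 0.05. MVD, the mevalonate diphosphate decarboxylase, rose by 0.46 ± 0.07, IDI1, the isopentenyl diphosphate isomerase, by 0.31 ± 0.05, ACAT2, the cytosolic thiolase, by 0.21 ± 0.05 and MVK by 0.22 ± 0.07. The call of MVK was lost in 4 of the 6 fits that left out a library, and those of HMGCS1, MVD, IDI1 and ACAT2 in 0. PMVK, phosphomevalonate kinase, and FDPS, farnesyl diphosphate synthase, did not pass the test, with values of -0.05 ± 0.07 and 0.10 ± 0.05.

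The fatty acid genes did not move as a group. SCD rose by 0.43 ± 0.06, from 1565, 1896 and 1662 CPM to 2317, 2207 and 2381 CPM, FADS2, a fatty acid desaturase, by 0.22 ± 0.05 and LPIN1, a phosphatidate phosphatase, by 0.18 ± 0.05. The 2 members called lower were ACLY and ACACA, when 22.2% of genes whose mean reached 1 CPM were called lower. ACLY, which splits citrate into acetyl-CoA, was at 575, 616 and 590 CPM with siNT and at 543, 539 and 508 CPM with siMyc, with a log2 fold change of -0.16 ± 0.05 (adjusted p = 0.0123, edgeR). ACACA, which makes malonyl-CoA (ENSG00000278540, chr17:37084992-37406836), was at 161, 168 and 168 CPM and at 147, 143 and 145 CPM, with a log2 fold change of -0.19 ± 0.05 (adjusted p = 0.00445, edgeR). In both genes all siMyc libraries lay below all siNT libraries. FASN, ELOVL6, FADS1 and ACSL3 had log2 fold changes between -0.04 and 0.09 and did not pass the test.

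Both SREBP genes were called higher after siMyc in 231:TKO, and both calls were lost in 4 of the 6 fits that left out a library. SREBF1 was at 184, 223 and 183 CPM with siNT and at 254, 224 and 211 CPM with siMyc, so that the groups overlapped, with a log2 fold change of 0.22 ± 0.07 (adjusted p = 0.0194, edgeR). SREBF2 was at 219, 236 and 229 CPM and at 268, 258 and 236 CPM. Its log2 fold change was 0.16 ± 0.05 (adjusted p = 0.0282, edgeR), and the groups overlapped by 1 library, since the lowest siMyc and the highest siNT library both lay at 236 CPM. INSIG1 was at 342, 359 and 356 CPM and at 304, 320 and 351 CPM, and SCAP at 83.1, 89.6 and 85.4 CPM and at 81.0, 80.2 and 69.5 CPM. Their values of -0.11 ± 0.05 and -0.16 ± 0.06 did not pass the test, nor did INSIG2 at 0.08 ± 0.07. ABCA1, which exports cholesterol, was at 39.6, 49.8 and 40.6 CPM with siNT and at 66.9, 52.9 and 67.2 CPM with siMyc, without overlap, and rose by 0.53 ± 0.09 (adjusted p = 0.000125, edgeR). STARD4, which moves sterol between membranes, rose by 0.20 ± 0.07 and lost its call in 5 of these 6 fits. The call of ABCA1 was lost in 1. In 1 fit of all 12 siRNA libraries 7 members were called higher and 0 lower, when 9.66% of all genes were called, and these were HMGCS1, MVD, IDI1, LSS, TM7SF2, MSMO1 and SCD.

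In parental 231 cells few members passed the test after the same knockdown, and the errors were larger. The single member called was MSMO1, when 0.595% of the 23715 genes tested were called, 0.24% higher and 0.354% lower. Of genes whose mean reached 1 CPM 1.05% were called, 0.424% higher and 0.624% lower. MSMO1 was at 133, 119 and 116 CPM in parental 231+siNT and at 176, 193 and 198 CPM in parental 231+siMyc, without overlap, with a log2 fold change of 0.60 ± 0.10 (adjusted p = 0.0492, edgeR), a call that was lost in 5 of the 6 fits that left out a library. Log2 fold changes were above 0 in 28 of the 34 members and in 18 of the 18 of the sterol branch, against 49.7% of all genes tested. In the sterol branch 9 had an unadjusted p under 0.05, against 14.6% of all genes tested. The median of the sterol branch was 0.23 and that of the fatty acid branch 0.045. The fatty acid median ran from -0.14 to 0.16 when 1 library was left out and was -0.028 without the pair of libraries that stood apart, so that it had no settled sign. TM7SF2 was at 19.7, 16.1 and 16.5 CPM and at 24.9, 26.1 and 28.8 CPM (0.59 ± 0.12), HMGCS1 at 80.0, 94.8 and 81.5 CPM and at 120, 126 and 106 CPM (0.44 ± 0.11), and LSS at 259, 300 and 289 CPM and at 358, 364 and 329 CPM (0.29 ± 0.10). None of these 3 genes passed the test over all genes. Their groups did not overlap, which held for other members too, among them IDI1 and FDFT1. The share of all genes without overlap was not computed. IDI1 had 0.45 ± 0.11, MVD 0.40 ± 0.15 and SCD 0.39 ± 0.14.

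The calls in parental 231 depended on how the pair of libraries that stood apart was treated, in fits chosen after the data had been seen. With a factor for that pair, 22 members were called higher and 0 lower, 16 of the 18 of the sterol branch among them, when 26.8% of all genes were called, 13.7% higher and 13.1% lower. With the pair left out, 17 members were higher, 13 of them in the sterol branch, when 20.8% of all genes were called, 9.95% higher and 10.9% lower. The log2 fold changes themselves moved little: MSMO1 had 0.60 ± 0.04 with the factor and 0.61 ± 0.05 without the pair, TM7SF2 0.59 ± 0.06 and 0.61 ± 0.07, HMGCS1 0.44 ± 0.05 and 0.45 ± 0.06, and SREBF2 0.22 ± 0.04 and 0.16 ± 0.05. SREBF1, at 221, 246 and 247 CPM in parental 231+siNT and at 269, 267 and 272 CPM in parental 231+siMyc, was called with the factor (0.16 ± 0.04) and not without the pair (0.09 ± 0.05). SREBF2 was at 193, 241 and 259 CPM and at 286, 288 and 242 CPM. INSIG1, at 221, 229 and 214 CPM and at 205, 217 and 220 CPM, and SCAP, at 97.7, 103 and 112 CPM and at 101, 103 and 98.7 CPM, overlapped between the groups and were called in neither fit. ABCA1 was at 55.0, 103 and 94.6 CPM and at 117, 110 and 66.5 CPM, and its lowest library in each group was the one that stood apart. ACLY at 324, 472 and 504 CPM and at 472, 481 and 328 CPM showed the same order.

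**Figure D1:**
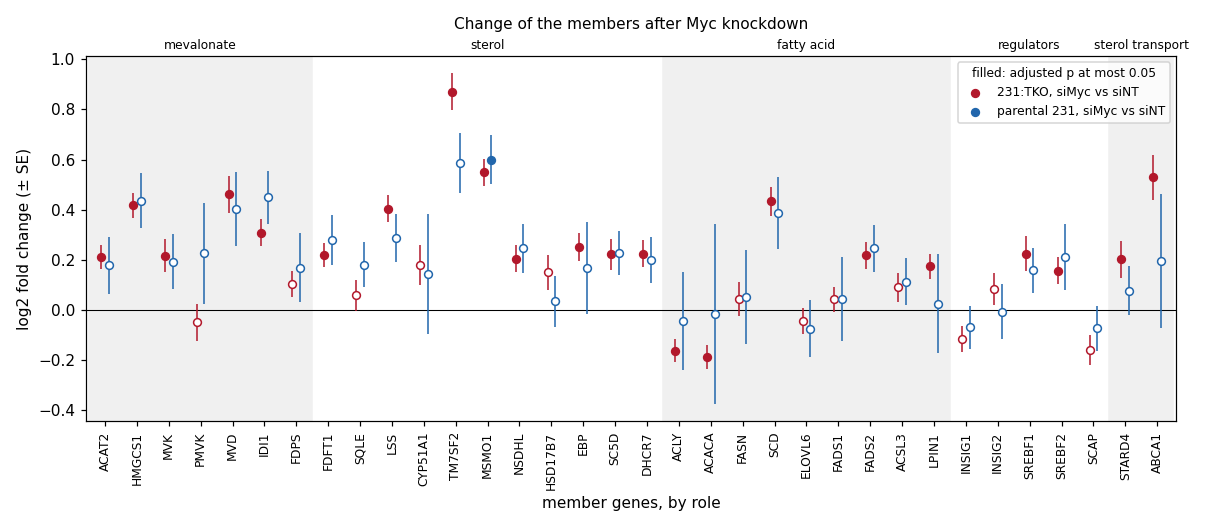
Log2 fold change (± SE) of each of the 34 members after siMyc against siNT, in 231:TKO (red) and parental 231 (blue), 3 libraries in each group. Filled points had an adjusted p of at most 0.05: 22 in 231:TKO and 1 in parental 231. Most sterol branch points lie above 0 in both populations, with wider error bars in parental 231.

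The difference between the responses of the populations was tested itself. In the interaction contrast over the 12 siRNA libraries edgeR called 0 of the 34 members, and 0% of the 25812 genes tested, of which 1039 had an unadjusted p under 0.05. DESeq2 called 0 members as well. Of the members, TM7SF2 alone had an unadjusted p under 0.05, with a response larger by 0.31 ± 0.14 in 231:TKO on the log2 scale. MSMO1 differed by -0.02 ± 0.12, HMGCS1 by 0.01 ± 0.13, LSS by 0.15 ± 0.12, SREBF1 by 0.09 ± 0.13, SREBF2 by -0.02 ± 0.15, INSIG1 by -0.02 ± 0.11 and SCAP by -0.06 ± 0.12. All 34 differences lay between -0.25 and 0.36. With the factor for the pair of libraries the SE of the MSMO1 difference was 0.07 and 0 members were called, when 0.57% of all genes were. With the pair left out 0 members were called, when 0.252% of all genes were. With these errors a difference between the responses was not detectable at this replication, which does not show that they were alike.

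**Figure D2:**
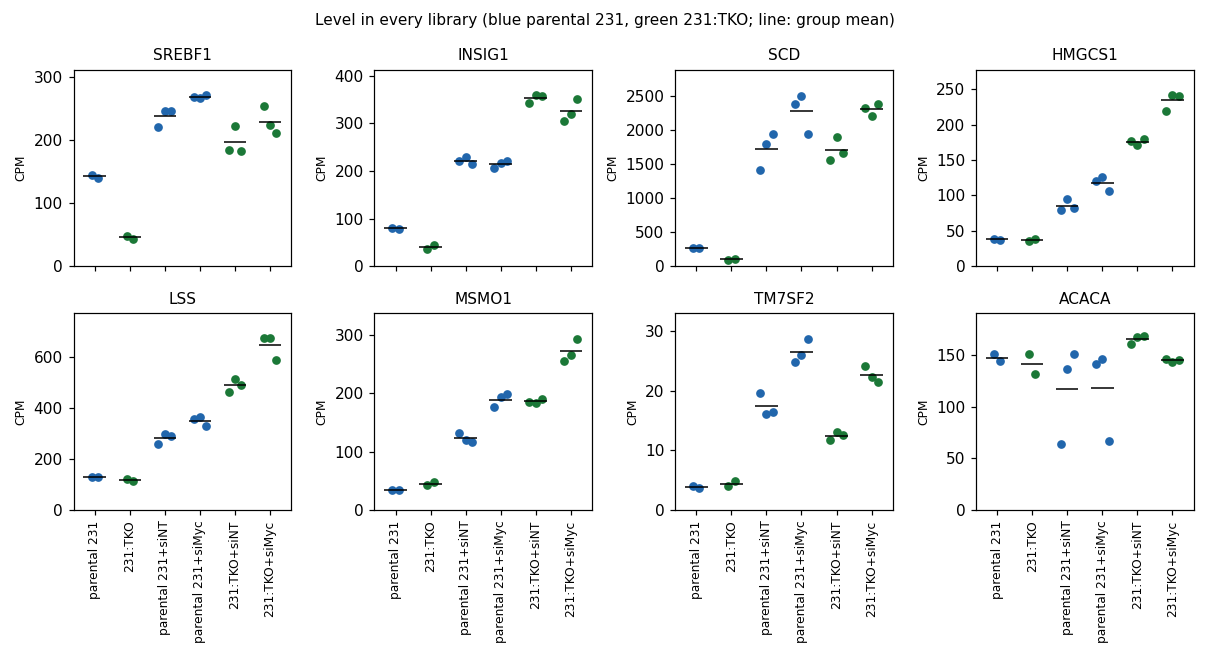
CPM of 8 members in every library of the 6 groups, each panel starting at 0, with parental 231 in blue, 231:TKO in green and the group mean as a line. HMGCS1, LSS and MSMO1 lie higher in the siMyc than in the siNT libraries of both populations, SREBF1 and SCD lie lower in untreated 231:TKO than in untreated parental 231, and ACACA shows the low parental 231+siNT and parental 231+siMyc libraries.

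Untreated 231:TKO cells had less mRNA of 3 of the 5 regulators (SREBF1, SREBF2 and INSIG1) and of 3 of the 9 fatty acid genes (SCD, FASN and ACSL3) than parental 231. Of the 34 members 6 were lower and 1 was higher by edgeR, when 9.62% of the 19951 genes tested were called, 5.44% higher and 4.18% lower. Of genes whose mean reached 1 CPM 13.8% were called, 8.35% higher and 5.4% lower. SREBF1 (ENSG00000072310, chr17:17810399-17837011) was at 145 and 141 CPM in parental 231 and at 48.5 and 42.5 CPM in 231:TKO, a log2 fold change of -1.72 ± 0.08 (adjusted p = 0.00298, edgeR). INSIG1 (ENSG00000186480, chr7:155297776-155310235) was at 80.3 and 78.5 CPM and at 36.2 and 44.2 CPM, a log2 fold change of -1.05 ± 0.11. SREBF2 was at 93.3 and 89.9 CPM and at 72.6 and 71.4 CPM (-0.42 ± 0.06), and SCAP at 94.5 and 94.4 CPM and at 85.3 and 96.1 CPM, which overlapped (-0.13 ± 0.08, not called). INSIG2 had 0.54 ± 0.15 and was not called.

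Among the fatty acid genes SCD (ENSG00000099194, chr10:100347233-100364826) was at 268 and 266 CPM in parental 231 and at 97.0 and 110 CPM in 231:TKO, a log2 fold change of -1.44 ± 0.08 (adjusted p = 0.00393, edgeR). FASN, the fatty acid synthase, had a log2 fold change of -0.64 ± 0.06, and ACSL3, an acyl-CoA synthetase at 135 and 133 CPM and at 98.9 and 91.7 CPM, had -0.57 ± 0.06. ELOVL6, the elongase of palmitate (ENSG00000170522, chr4:110045846-110199199), was the member that was higher, at 106 and 107 CPM and at 185 and 208 CPM (0.81 ± 0.08, adjusted p = 0.0104, edgeR). Its 28 neighbours within 5 Mb that reached a mean of 1 CPM had a median log2 fold change of 0.56. The neighbours of INSIG2 had a median of 0.51, those of MSMO1 0.45, those of SC5D 0.41, those of HMGCS1 0.32 and those of SREBF1 -0.31, and those of SCD and INSIG1 were near 0 (0.02 and 0.02). The part of the chromosome regions in these values was not tested. FADS1 (-0.61 ± 0.14), FADS2 (-0.29 ± 0.14), ACACA at 151 and 144 CPM and at 151 and 131 CPM, ACLY at 423 and 426 CPM and at 450 and 448 CPM, and LPIN1 (-0.13 ± 0.30) did not pass the test.

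In the sterol branch edgeR called 0 of 18 members in the untreated cells. Of these, 8 had an unadjusted p under 0.05, against 25.9% of all genes tested, and DESeq2 called 1, IDI1, lower. The median log2 fold change was -0.13, against -0.29 in the fatty acid branch and 0.0048 over all genes. HSD17B7 had -0.78 ± 0.21, MVK -0.60 ± 0.17, IDI1 -0.44 ± 0.09 and MVD -0.43 ± 0.12, while PMVK had 0.51 ± 0.11 and CYP51A1 0.45 ± 0.21. HMGCS1 was at 38.3 and 37.6 CPM and at 36.1 and 38.6 CPM, LSS at 130 and 131 CPM and at 123 and 112 CPM, MSMO1 at 34.1 and 34.6 CPM and at 41.8 and 47.2 CPM, and TM7SF2 at 3.97 and 3.60 CPM and at 3.97 and 4.84 CPM. ABCA1, at 52.2 and 56.1 CPM and at 26.6 and 11.2 CPM, had -1.59 ± 0.42 (adjusted p = 0.0956, edgeR), and its 231:TKO libraries lay far apart. STARD4 had -0.36 ± 0.12.

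Calls in the untreated cells rest on 2 libraries a group. With 1 library left in an arm, the spread comes from the other group alone, with an SD of 0.245 in 231:TKO and 0.0771 in parental 231, so these counts follow from which group gave the spread and say little of stability. Leaving out either parental 231 library left 0 members called, and leaving out a 231:TKO library gave 6 higher and 18 lower (without replicate 1) or 5 higher and 19 lower (without replicate 2). The fold changes of the called members kept their direction in all 4 fits. SREBF1 lay between -1.83 and -1.64, SCD between -1.54 and -1.36 and INSIG1 between -1.21 and -0.93.

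Between the siNT-treated populations the pattern was another one. Of the 34 members 11 were higher and 7 lower in 231:TKO+siNT than in parental 231+siNT, when 36.8% of the 23310 genes tested were called, 16.1% higher and 20.7% lower. Of genes whose mean reached 1 CPM 50.7% were called, 22.4% higher and 28.3% lower, so that the members' share of 52.9% was near the background. HMGCS1 was higher by 1.01 ± 0.09, LSS by 0.77 ± 0.09, SC5D by 0.60 ± 0.09, MSMO1 by 0.57 ± 0.09, ACAT2 by 0.56 ± 0.09 and SQLE by 0.50 ± 0.09 on the log2 scale. The HMGCS1 libraries listed above lay at 172 to 179 CPM in 231:TKO+siNT, all above the highest parental 231+siNT library at 94.8 CPM. STARD4, at 48.2, 53.5 and 46.8 CPM in parental 231+siNT and at 76.5, 79.2 and 85.2 CPM in 231:TKO+siNT, was higher by 0.67 ± 0.09, INSIG1 by 0.64 ± 0.08, LPIN1 by 0.62 ± 0.16, INSIG2 by 0.46 ± 0.10 and ACLY by 0.43 ± 0.14. The lower members were ABCA1 at -0.99 ± 0.22, FADS2 at -0.60 ± 0.10, TM7SF2 at -0.52 ± 0.11, MVK at -0.45 ± 0.09, FADS1 at -0.38 ± 0.13, SCAP at -0.31 ± 0.09 and SREBF1 at -0.30 ± 0.10. Of the 6 fits that left out a library, 5 lost the call of FADS1, 4 that of SREBF1 and 3 those of SCAP and ACLY. The neighbours of ACAT2, INSIG2 and MVK had medians of 0.57, 0.51 and -0.43, close to the values of these genes, and those of MSMO1 -0.25.

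SCD, at -0.03 ± 0.12, and SREBF2, at -0.05 ± 0.11, did not pass the test between the siNT-treated populations, nor did the other members. Without the library that stood apart, 15 members were higher and 11 lower, when 48.2% of all genes were called, 22.4% higher and 25.8% lower. In the fatty acid branch 3 were then higher and 4 lower, against 2 and 2 with all libraries. Of the regulators 2 were higher and 3 lower, against 2 and 2. FASN, not called with all libraries, was at 693 CPM in that library and at 1027 and 1155 CPM in the other parental 231+siNT libraries. With siMyc, 11 members were higher and 9 lower in 231:TKO, when 40.6% of all genes were called, 18.8% higher and 21.7% lower. Of genes whose mean reached 1 CPM 54.9% were called, 25.3% higher and 29.6% lower, beside 58.8% of the members. Counts without the library that stood apart were 14 and 13, when 49.7% of all genes were called, 23.1% higher and 26.6% lower. HMGCS1 was higher by 1.00 ± 0.10 there, LSS by 0.89 ± 0.09 and STARD4 by 0.80 ± 0.11. The siRNA-treated populations were counted on different Ensembl releases, the earlier for 231:TKO and the later for parental 231, in which the length of DHCR7 is 4121 and 6852 bases and that of ACSL3 7232 and 14436 bases. The lengths of TM7SF2, HSD17B7, IDI1 and SREBF1 differ by less, and those of the other members are the same. Total counts also differed, 31848151 to 39527700 in siRNA-treated 231:TKO and 48203939 to 59799444 in siRNA-treated parental 231. Annotation release, total counts and population thus go together in the siRNA-treated libraries and cannot be told apart for any gene.

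**Figure D3:**
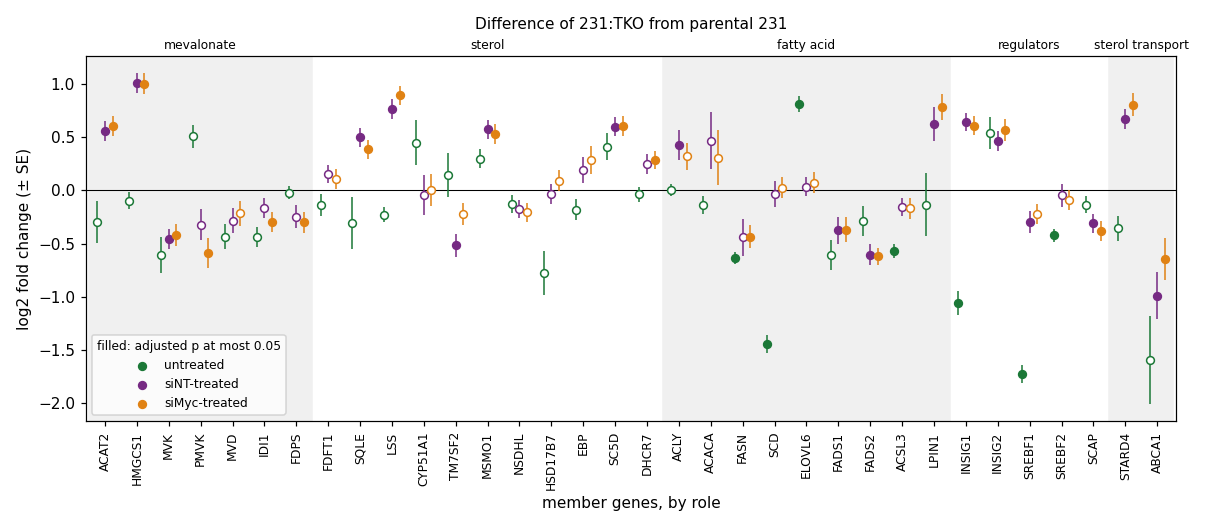
Log2 fold change (± SE) of each member in 231:TKO against parental 231, for untreated cells (green, 2 libraries a group), siNT-treated cells (purple, 3) and siMyc-treated cells (orange, 3). Filled points had an adjusted p of at most 0.05. SREBF1, SCD and INSIG1 lie at -1.05 or lower in the untreated cells. The siNT and siMyc points lie close together for most genes, and further apart for ABCA1 (-0.99 and -0.64) and TM7SF2.

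The knockout difference itself differed between untreated and siNT-treated cells. In the interaction contrast over these 10 libraries 9 members had a higher and 2 a lower knockout difference with siNT, when 14.1% of the 25112 genes tested were called, 6.2% higher and 7.91% lower. Of genes whose mean reached 1 CPM 24.3% were called, 10.3% higher and 13.9% lower. INSIG1 differed by 1.70 ± 0.15 on the log2 scale (adjusted p = 3.21e-06, edgeR), SREBF1 by 1.42 ± 0.16, SCD by 1.41 ± 0.18, HMGCS1 by 1.11 ± 0.14, STARD4 by 1.02 ± 0.16 and LSS by 0.99 ± 0.14. ACAT2, SQLE and HSD17B7 followed with 0.85, 0.80 and 0.74, and PMVK and ELOVL6 had -0.84 and -0.78. In untreated cells the neighbours of ACAT2 had a median of -0.06, while with siNT their median, given above, was close to the value of ACAT2. Those of ELOVL6 had a median of 0.56 in untreated cells. The part of the chromosome regions in these differences was not tested. Of the 10 fits that left out a library, 5 lost the call of PMVK (-0.96 to -0.67), 5 that of SQLE and 2 that of HSD17B7. SQLE ranged from 0.50 without replicate 1 of 231:TKO to 1.19 without its replicate 2. ELOVL6, higher in untreated 231:TKO, was at 147, 139 and 145 CPM in 231:TKO+siNT and at 125, 144 and 143 CPM in parental 231+siNT, which overlapped. Without the library that stood apart 12 members were called higher and 4 lower, when 20.6% of all genes were called, 7.44% higher and 13.2% lower, and SQLE, at 0.72 ± 0.23, was not among them. The untreated and siRNA experiments differ in sequencing as well, single reads against read pairs, and in the parental 231 annotation release.

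Most members had higher levels in the siNT-treated than in the untreated libraries of the same population. This comparison was not tested, because treatment, experiment and sequencing layout cannot be told apart. In parental 231 the annotation release differs as well, and with it the lengths of some members, including DHCR7 and ACSL3. Mean CPM was at least 2-fold higher with siNT for 19 of 34 members in parental 231, against 18.2% of 13293 genes whose mean reached 1 CPM, and for 24 of 34 in 231:TKO, against 13.1% of 13182 genes. Among the members 0 were at least 2-fold lower, against 10.4% of those genes in parental 231 and 7.12% in 231:TKO. In the sterol branch 14 of 18 were at least 2-fold higher in parental 231 and 16 of 18 in 231:TKO, with median log2 ratios of 1.45 and 1.73, and in the fatty acid branch 3 of 9 and 4 of 9, with medians of 0.45 and 0.77. SCD went from 267 ± 2.0 CPM (SD, n = 2) to 1712 ± 270.3 (n = 3) in parental 231 and from 103 ± 9.1 to 1707 ± 170.1 in 231:TKO. INSIG1 went from 79.4 to 221 CPM and from 40.2 to 353 CPM, and DHCR7, the last enzyme of the sterol series, from 49.5 to 261 CPM and from 50.8 to 316 CPM. Among the fatty acid genes ACLY and ACACA changed least, with log2 ratios of 0.03 and -0.33 in parental 231 and 0.40 and 0.23 in 231:TKO. The parental 231+siNT means include replicate 1, which stood apart. ACACA was at 64.1 CPM in it, against 136 and 151 CPM in the other siNT libraries and 151 and 144 CPM untreated. ACLY (324 against 472 and 504 CPM) and FADS1 (244 against 327 and 352 CPM) were also low in it. The parental 231 ratios and medians were not computed without it.

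**Figure D4:**
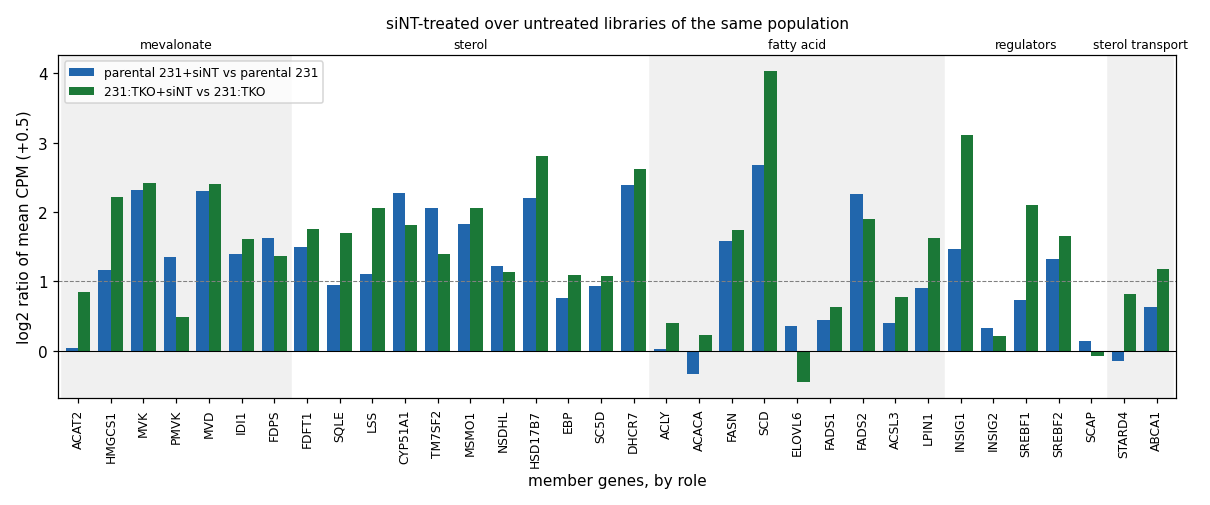
Log2 ratio of mean CPM (plus 0.5) in siNT-treated over untreated libraries of parental 231 (blue) and 231:TKO (green), with the dashed line at 2-fold. No test was made. Sterol branch bars lie mostly above the dashed line, and SCD and INSIG1 reach 4.04 and 3.12 in 231:TKO.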

How the data were processed

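RNA was captured with a stranded mRNA kit. The authors aligned reads to GRCh38 with STAR, assigned them to genes with featureCounts 1.6.3 on the reverse strand by largest overlap, and deposited raw counts per gene, unnormalized, which were used as they stand. Per the file headers, single reads were counted in the untreated libraries and read pairs after siRNA. Of 60620 shared identifiers 59054 have the same length in both Ensembl releases.

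Testing took in every gene whose counts, added over a comparison's libraries, exceeded 5, and used the quasi-likelihood test of edgeR 4.0.16 in R 4.3.3, with TMM scaling, robust dispersions and Benjamini-Hochberg adjustment over all genes tested. Adjusted p of at most 0.05 was called. Each comparison used its own libraries, and interactions were contrasts in 1 fit. DESeq2 1.42.0, other filters, thresholds and scalings, a replicate block, 1 fit of the 12 siRNA libraries and each library left out were alternatives. Fits that leave out or model libraries standing apart were added later, with the data in view. Steps were tested on simulated data.

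Members and lists were chosen with earlier results of these data known. All members were named. Values of every library were given for TXNIP, MYC, INSIG1, SREBF1, SREBF2, SCAP, the 3 called members with the highest and the 3 with the lowest fold change in the first 3 comparisons, and 6 called in an interaction, and for a few others chosen after their values were seen. Replicates are separate libraries, and p-values measure the spread between them, which may be technical. Intervals on counts were not used.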

Additional observations from a re-analysis of the deposited data

Results flagged for a closer look

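The members below were listed because the difference between 231:TKO and parental 231 was itself different in siNT-treated and untreated cells, by edgeR's quasi-likelihood test of the interaction with Benjamini-Hochberg adjustment over all genes. Signed values are the knockout log2 fold change with siNT minus that without treatment. The values were 1.70 for INSIG1, 1.42 for SREBF1, 1.11 for HMGCS1, 1.41 for SCD, 0.99 for LSS, 1.02 for STARD4, -0.78 for ELOVL6, 0.85 for ACAT2, 0.74 for HSD17B7, 0.80 for SQLE and -0.84 for PMVK. The calls of SQLE and PMVK were each lost in 5 of the 10 fits that left out a library, and that of HSD17B7 in 2. For SREBF1 and SCD the untreated differences of -1.72 and -1.44 were followed by -0.30 and -0.03 with siNT. For INSIG1 the sign changed, from -1.05 to 0.64. HMGCS1 and LSS, at -0.10 and -0.23 untreated and not called, were at 1.01 and 0.77 with siNT. Untreated and siRNA-treated libraries were sequenced with different layouts, so that treatment, experiment and layout cannot be told apart. The siRNA-treated populations differ in annotation release and total counts as well. For ACAT2 and ELOVL6 the neighbours moved too, and the part of the chromosome regions in these values was not tested. The labels do not tell which clone each 231:TKO library came from. Groups of 2 or 3 libraries are too small for a test of single outlying libraries.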

How the results depend on the processing

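Whether the same replicate numbers in different groups mark pairs is not stated. Deviations of same-numbered libraries correlated at between -0.148 and 0.267 in siRNA-treated 231:TKO and between -0.812 and 0.629 in siRNA-treated parental 231. With so few libraries a group, and in parental 231 with the pair that stands apart, these values cannot settle it. A replicate block gave 20 members higher and 4 lower in 231:TKO+siMyc against 231:TKO+siNT (30.4% of all genes called), 0 higher in parental 231+siMyc against parental 231+siNT (0%), and 1 higher and 5 lower in the untreated cells (4.53%). Other counts stayed within 1.5 times. In the untreated cells an adjusted p of at most 0.01 left 0 members higher and 3 lower, either other low-count filter gave 2 higher, and with neighbours subtracted the fatty acid median was -0.38. Over fits that left out a library there, the members higher ranged from 0 to 6, those lower from 0 to 19 and the fatty acid median from -0.52 to -0.25. For siMyc in 231:TKO, 1 member was lower at 0.01, and 1 fit of 12 libraries gave 7 higher and 0 lower (9.66%). For siMyc in parental 231, 0 were higher at 0.01, 4 with DESeq2 (3.87% of all genes called), 0 with DESeq2's size factors (0.384%), 2 without a filter (1.06%), 5 in 1 fit of 12 libraries (6.45%), 17 without the pair that stands apart (20.8%) and 22 with a factor for it (26.8%), and leaving out single libraries gave 0 to 2, with a sterol median of 0.20 to 0.27 and a fatty acid median of -0.14 to 0.16. Without the pair the sterol median of the difference between responses was -0.0296, and over single libraries it was -0.0723 to 0.0450. In the siNT-treated knockout comparison 4 were lower at 0.01 and 11 without the library that stands apart, where the sterol median was 0.11, and leaving out single libraries gave 4 to 11 lower and a median of 0.0409 to 0.1137. In the siMyc-treated one, 5 were lower at 0.01 and the sterol median without that library was 0.16, and single libraries gave 4 to 13 lower and 0.0776 to 0.1598. In the difference between untreated and siNT, 1 was lower at 0.01 and 4 without that library, where the fatty acid median was 0.20, and single libraries gave 1 to 4 lower, fatty acid medians of 0.20 to 0.44 and sterol medians of 0.22 to 0.34. The members whose values changed sign were not called in that comparison with all libraries. For siMyc in parental 231, over fits that left out a library, LPIN1 lay between -0.16 and 0.19 (-0.0280 without the pair, against 0.03 with all libraries), ABCA1 between -0.0419 and 0.40, ACLY between -0.22 and 0.10, ACACA between -0.32 and 0.26 and EBP between -0.0262 and 0.34. In the difference between responses SREBF2 lay between -0.18 and 0.0385, INSIG1 between -0.0796 and 0.0362 and SCAP between -0.17 and 0.0062, and SREBF2 in the siNT-treated knockout comparison between -0.14 and 0.0595. The cause of these changes was not tested. With 2 or 3 libraries a group, small responses can pass or miss the threshold by 1 library.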

Other observations

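Beside the members, 38 genes of neighbouring steps (sterol export and storage, isoprenoid branches, acetyl-CoA supply, other elongases and desaturases, triglyceride synthesis and fatty acid oxidation) were read out. In 231:TKO+siMyc against 231:TKO+siNT, 14 were higher and 5 lower by edgeR, a share of 50%, with a median log2 fold change of 0.13. Of all genes tested 27.2% were called, 13.3% higher and 13.9% lower. Of genes whose mean reached 1 CPM 43.1% were called, 20.9% higher and 22.2% lower. In parental 231, where 0.595% of all genes were called, 1 was called, ACSS2, the cytosolic acetyl-CoA synthetase, which was also called in 231:TKO. ACSS2 rose from 88.0 ± 9.5 CPM to 143 ± 5.3 (SD, n = 3) in 231:TKO, a log2 fold change of 0.71, and from 97.6 ± 7.6 to 146 ± 5.6 CPM in parental 231, a log2 fold change of 0.56. It is the second source of cytosolic acetyl-CoA beside ACLY, whose log2 fold changes were -0.16 and -0.04. Untreated 231:TKO and parental 231 had like levels of ACSS2, 48.8 ± 2.8 and 48.4 ± 0.88 CPM (SD, n = 2). In the untreated cells 2 of the 38 were higher and 4 lower in 231:TKO, a share of 15.8% near that of genes whose mean reached 1 CPM (13.8%) and above that of all genes tested (9.62%).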
